A study of Mus musculus with 574 samples.

Results

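The 2 sets of granulocyte/macrophage progenitors (GMPs) taken from mouse bone marrow on day 8 after 5-fluorouracil (5-FU) were compared with each other, gene by gene and cell by cell. A cell was kept with 50000 or more reads in genes, spread over 1000 genes or more. This left 90 of 96 cells in set 1 and 93 of 94 in set 2, 183 of the 500 cells kept in the whole series. Both sets came from C57Bl/6 mice of 6 to 12 weeks given a single injection of 5-FU at 150 mg/kg, and both were labelled GMP, 5-FU and day 8. The other sets, from days 0, 10, 12 and 14, are used only to place the levels of single genes. The protocol also names control mice given PBS without saying which samples received it, and names crushed and flushed bones without saying which set came from which. After enrichment for c-Kit, single cells were sorted 1 to a well as lin-/c-Kit+/Sca-1-/CD34+/FcγR+, with a lineage stain against T cell (CD3, CD4, CD5, CD8), B cell (B220), erythroid (Ter119) and mature myeloid antigens (Gr-1 and Mac-1), and their cDNA was amplified with Smart-seq2. The labels number the sets 1 and 2 and do not say whether they came from separate mice, sorts or plates. Each side of the comparison is therefore 1 set, so no difference has a test, and each interval below covers counting error only. Because molecules were not tagged, PCR copies are counted as reads, which makes these intervals too narrow as statements about molecules.

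GMPs are the bone marrow progenitors that give rise to neutrophils and to monocytes, and they carry large amounts of RNA for the enzymes of primary granules. The gate is defined by surface proteins and can hold cells that already transcribe genes of basophils, mast cells, eosinophils or early lymphoid cells. 5-FU kills dividing cells, and the progenitors that survive then divide to refill the marrow. In single-cell data, a gene that is silent in nearly all cells and abundant in a rare cell has a summed level that turns on whether a set happens to hold such a cell.

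The sequences that bear on the results below are the miRNA entry and the promoters of the genes with the plainest patterns. Mir6236 is shown as its mature sequence because its count was among the largest that differed, and S100a8 and S100a9 are shown as the neighbouring genes that were high in the same cell. Cebpb is shown because it was the gene past 4-fold whose difference was spread over many cells. All are from RefSeq on build GRCm38.p6, written from 5′ to 3′. The promoters are the 250 bases before the annotated start.
Mir6236, mature, with the seed (bases 2 to 8) in capitals, chr9:110281353-110281371, plus strand: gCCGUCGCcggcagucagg
S100a8, with GCAAT on either strand and TATAAA in capitals, chr3:90668821-90669070, plus strand: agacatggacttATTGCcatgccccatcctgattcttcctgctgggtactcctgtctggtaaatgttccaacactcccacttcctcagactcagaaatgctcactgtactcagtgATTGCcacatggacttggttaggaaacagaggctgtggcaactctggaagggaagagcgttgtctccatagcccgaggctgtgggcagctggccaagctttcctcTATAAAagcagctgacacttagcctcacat
S100a9, with GCAAT and GATAA in capitals, chr3:90695722-90695971, minus strand: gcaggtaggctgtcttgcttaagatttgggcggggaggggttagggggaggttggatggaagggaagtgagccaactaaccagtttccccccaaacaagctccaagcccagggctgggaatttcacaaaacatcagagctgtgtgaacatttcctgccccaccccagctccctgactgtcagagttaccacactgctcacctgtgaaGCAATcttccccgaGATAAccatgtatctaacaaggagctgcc
Cebpb, with GCAAT in capitals, chr2:167688665-167688914, plus strand: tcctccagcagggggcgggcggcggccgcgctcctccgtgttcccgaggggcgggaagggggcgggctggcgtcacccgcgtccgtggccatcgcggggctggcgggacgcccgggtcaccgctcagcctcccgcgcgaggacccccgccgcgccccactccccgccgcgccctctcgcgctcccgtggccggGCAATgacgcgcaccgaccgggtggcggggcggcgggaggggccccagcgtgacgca

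The short motifs searched, whose matches do not overlap in these windows, were GCAAT on both strands, the core of sites bound by C/EBP factors, GATAA on both strands, the core of GATA factor sites, and TATAAA on the printed strand. S100a8 held GCAAT at 238 and 135 bases before its start and TATAAA at 30, S100a9 held GCAAT at 43 and GATAA at 29, and Cebpb held GCAAT at 57. Of 32851 mouse promoters of this length, 23.1% held GCAAT, 22.6% GATAA and 7.59% TATAAA, so each match is common and is given only as a description. The Cebpb promoter had a GC content of 81.6% against a median of 52.4% over all promoters. The seed of Mir6236 was found in 1 of 1674 mature mouse miRNAs, which was Mir6236 itself. Of the 29 genes past 4-fold described below, 21 had a promoter entry, and Prg2 was not among them.

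The median cell of set 1 held 289938 reads in genes (range 52044 to 1280086) and that of set 2 held 214717 (51260 to 1117137). Summed over cells, the sets held 30691997 and 25650670 reads. The median cell had a read in 8335.5 genes in set 1 and 8174 in set 2. The 10 deepest cells gave 29.7% of the reads of set 1 and 29.6% of those of set 2, so neither sum rested on a single cell. The defining RNAs of the sorted cells were present in both sets: Mpo, the myeloperoxidase of primary granules, ran from 456 to 66577 counts scaled to a common depth (CPM) of a cell's reads in set 1 with a median of 19379, and from 87.3 to 52605 with a median of 11263 in set 2. Of the genes of the gate, Kit, Cd34, Fcgr3, Fcgr2b and Cd48 each lay within 1.5-fold between the sets. Ly6a, which encodes Sca-1, stood at 4.42 and 10.3 CPM.

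Most genes were close between the sets. Reads were summed over the kept cells of a set and scaled to CPM with TMM factors, and 8539 genes reached 10 CPM in at least 1 set. Over these genes the log2 level, log2(CPM + 1), had a Pearson correlation of 0.956, and 7218 genes (84.5%) lay within 1.5-fold. The median log2 ratio of set 2 to set 1 was −0.14, and log2 ratios below are read against that shift. At least 2-fold apart were 296 genes, 3.47% of those compared, with 179 higher in set 1 (2.1%) and 117 higher in set 2 (1.37%). At least 4-fold apart were 29 genes (0.34%), with 15 higher in set 1 and 14 higher in set 2. Low levels made up most of these: among the 4915 genes with at least 32 CPM in 1 set, 64 were past 2-fold and 8 past 4-fold. The genes just inside 4-fold were Prkcb, Bbs9 and Ly86, with log2 ratios of −2.07 to −2.03, and Nsmf at 2.08. Just outside were Vdr, E130307A14Rik and F10, with log2 ratios of −1.94 to −1.91, and Gm5590 at 1.97.

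For scale, the sets of days 0 and 10 were compared with each day 8 set by the same rule. These comparisons share sets and are given side by side only. Day 10 differed at least 2-fold from set 1 in 4.42% of genes and from set 2 in 5.63%, and at least 4-fold in 0.499% and 0.791%. Day 0 differed at least 2-fold from set 1 in 14.7% and from set 2 in 10%, and at least 4-fold in 1.72% and 1.71%. The gap between the day 8 sets was thus below each of these 4 gaps to days 0 and 10 at both folds, and day 0 lay closer to set 2 than to set 1 at the 2-fold mark.

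**Figure D1:**
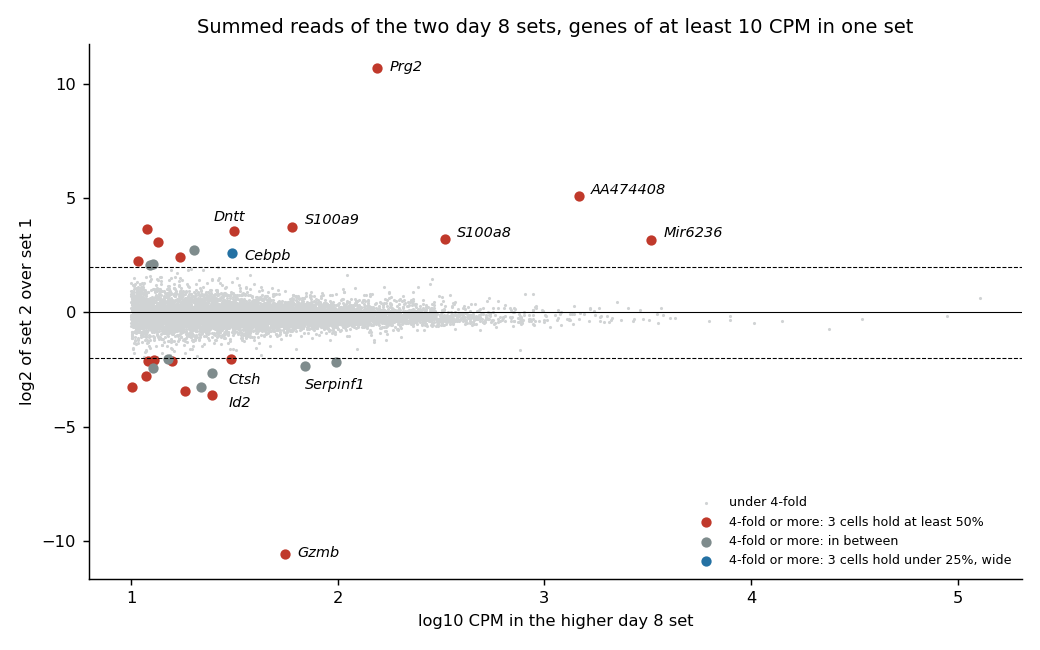
Each point is a gene of at least 10 CPM in 1 day 8 set, with the log10 CPM of the higher set on the horizontal axis and the log2 ratio of set 2 to set 1 on the vertical axis, and dashed lines at 4-fold. The 29 genes past 4-fold are coloured by how their reads were spread over the cells of the higher set; Prg2 and Gzmb lie beyond 10 on the log2 scale, and Mir6236 and AA474408 are the genes past 4-fold above 1000 CPM.

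Each gene past a fold was sorted by where its reads lay in the set where it was higher. A gene rested on few cells if 3 cells held at least 50% of its reads. It was spread over many cells if 3 cells held under 25% and at least 20% of cells still had a read after each cell was thinned at random to 50000 reads. Of the 29 genes past 4-fold, 19 rested on few cells, 9 lay in between and 1 was spread over many. Of the 296 past 2-fold, 55 rested on few cells, 164 lay in between and 77 were spread over many. How many of all compared genes fall in each class was not counted, so these numbers are only a description. Over all genes compared, the top 3 cells held a median of 20.9% of a gene's reads in the higher set. The 29 genes were mostly low, with a median of 20.1 CPM in the higher set, and few reads can more easily lie in 3 cells. The spread differed by direction: of the 117 genes higher in set 2, 21 rested on few cells and 49 were spread over many, while of the 179 higher in set 1 the numbers were 34 and 28. Sorted by CPM per cell in place of reads, which gives shallow and deep cells the same weight, 14 of the 19 few-cell genes past 4-fold stayed in that class. Without the top 3 cells of each set, and with no level required, all 19 were still at least 2-fold apart in the same direction. Such folds can rest on few reads. For Prg2, Gzmb and Dntt 1 set then had 0 reads and was put at 3. This does not show that the differences were also held by the remaining cells.

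**Figure D2:**
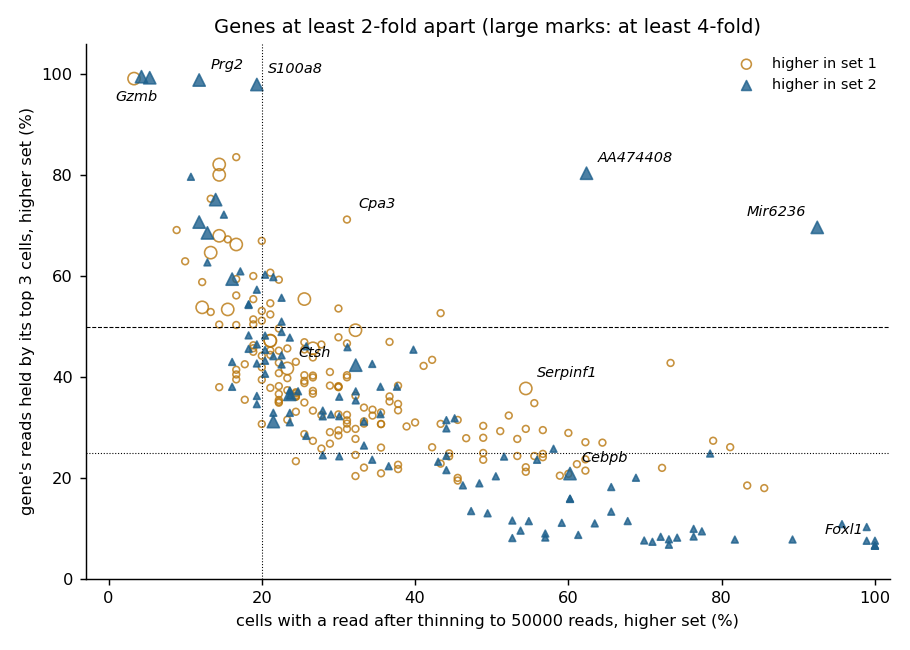
Each mark is 1 of the 296 genes past 2-fold, with the percentage of cells that had a read after thinning on the horizontal axis and the percentage of the gene's reads held by its top 3 cells on the vertical axis, both in the higher set. Open circles are higher in set 1, filled triangles higher in set 2, and large marks are past 4-fold; Prg2, S100a8 and Gzmb lie at the top left, Cebpb and Foxl1 at the bottom right, and Mir6236 and AA474408 at the top right.

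The plainest few-cell differences were in genes of eosinophil and neutrophil granules. Prg2 (chr2:84980461-84983632, mm10, protein-coding), the major basic protein of eosinophil granules, had 0 reads in the 90 cells of set 1 and 4287 reads in set 2, or 0 and 155 CPM. With set 1 put at 3 reads, set 2 was higher by at least 10.67 on the log2 scale. In set 2 the lowest and the median cell had no read, 17 of 93 cells had at least 1, and the highest, cell 41, had 4209 reads (41531 CPM), 98.2% of the set's total. The sets overlapped in the 76 cells of set 2 and all cells of set 1 that had none, and the 0 of 90 in set 1 allows up to 3.33% of cells with a read by the limit of 3 counts, or 4.02% by the exact interval. Without the top 3 cells of each set the log2 ratio was 4.22, with set 1 again put at 3 reads.

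Cell 41 carried other genes of the same granules. Prg3, a homologue of Prg2, was at 1914 CPM in this cell, and Epx, eosinophil peroxidase, at 1283 CPM, which were 99.0% and 81.3% of the reads of those genes in set 2. Siglecf, a surface lectin of eosinophils, was at 148 CPM, although 53 of the other 92 cells also had a read of it. Ear1, Ear2, Ear6, Il5ra and Alox15 had 0 reads there. The cell also held Mcpt8 at 2487 CPM and Cpa3 at 1273 CPM, proteases of basophils and mast cells, and Mpo at 16113 CPM. It was a shallow cell, with 101347 reads and 5923 genes. In the sets of other days Prg2 stood at 409 CPM on day 0, 27.4 on day 10 and 0 on days 12 and 14.

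S100a9 and S100a8, whose proteins form calprotectin in maturing neutrophils, were likewise decided by 1 cell. The genes lie beside each other (chr3:90692632-90695721 and chr3:90668978-90670035, mm10). S100a9 stood at 4.49 CPM in set 1 and 60.2 in set 2, a log2 ratio of 3.75 (counting interval 3.5 to 4.0). Of the reads in set 2, cell 52 held 99.0% (1643 reads, 5880 CPM), and of the 141 reads in set 1, cell 34 held 88.7% (400 CPM). A read was found in 5 of 90 and 10 of 93 cells, and the median cell of both sets had none. S100a8 stood at 35.4 and 330 CPM, a log2 ratio of 3.22 (3.13 to 3.31), with 96.2% of the reads of set 2 in cell 52 (31342 CPM) and 81.8% of those of set 1 in cell 34 (2915 CPM). Each set thus held 1 cell high in both genes, and the cell of set 2 was the higher.

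Cell 52 was rich in primary granule RNA as well. Elane, neutrophil elastase, reached 20719 CPM there, the highest of set 2, and Mpo 30880 CPM. Lcn2, a secondary granule protein, stood at 494 CPM and Wfdc21, a small whey acidic protein, at 884 CPM, while Ltf and Ngp, further secondary granule genes, had 0 reads and Camp had 3. Wfdc21 was itself past 4-fold (3.24 and 17.3 CPM, log2 ratio 2.41), with 51.8% of the reads of set 2 in this cell. Of the 17 late neutrophil genes listed, 5 were compared. S100a8, S100a9 and Wfdc21 were past 2-fold and higher in set 2, and none was past 2-fold and higher in set 1. Over all genes compared, 1.37% were past 2-fold and higher in set 2. The median log2 ratio of the list, 2.41 against −0.14 over all genes, is the value of Wfdc21. S100a9 was given with the comparison, and S100a9 and Wfdc21 reached 10 CPM only in set 2. All 3 genes had most of their set 2 reads in cell 52, so the count describes that cell and not separate differences. Without the top 3 cells of each set the log2 ratios of S100a9, S100a8 and Wfdc21 were 2.18, 1.82 and 2.83, but none of the 3 then reached the level compared. Without cells 41, 52 and 91 of set 2 and cell 39 of set 1 the log2 ratios of S100a9 and S100a8 were −2.82 and −1.46, the opposite direction. That choice leaves out the high cell of set 2 for these genes but keeps cell 34, the high cell of set 1.

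The largest difference towards set 1 had the same form. Gzmb (chr14:56258838-56262260, mm10), the protease granzyme B, had 1739 reads in set 1 (55.3 CPM) and 1 read in set 2, a log2 ratio of −10.58 (−15.88 to −8.10). Cell 39 of set 1 held 1713 of these reads (98.5%, 7813 CPM), the next highest cell had 23.5 CPM and the median cell none. This cell had the highest levels of set 1 for Cpa3 (9633 CPM), Mcpt8 (8561) and Gata2 (2107), a GATA factor of basophils and mast cells. Ms4a2 and Fcer1a, which encode chains of the IgE receptor, were at 1186 and 926 CPM. Of other basophil and mast cell genes, Prss34, Tpsb2, Tpsab1 and Mcpt4 had 0 reads in it, and Prss34 reached 2905 CPM in another cell of set 1. Mpo was at 456 CPM and Elane at 22.8 CPM in it, far under the medians of 19541 and 1162 CPM in the other cells. The cytotoxic cell genes Gzma, Prf1, Ncr1 and Cd3e had 0 reads in it, while Nkg7 stood at 506 CPM, near its median of 530 CPM in the other cells. Id2, an inhibitor of basic helix-loop-helix factors, stood at 24.6 and 1.99 CPM (log2 ratio −3.62), with 75.4% of the reads of set 1 in cell 39.

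Cpa3, carboxypeptidase A3 of mast cells and basophils (chr3:20215620-20242181, mm10), was read in both sets and had a large part of its reads in few cells. It stood at 150 CPM in set 1 and 61.6 in set 2, a log2 ratio of −1.28 (−1.36 to −1.20). Yet 45 of 90 and 46 of 93 cells had a read, 19 cells of each set reached 50 CPM, and the median among cells with a read was 35.9 and 31.7 CPM. The highest cells were cell 39 of set 1 at 9633 CPM and cell 41 of set 2 at 1273 CPM. Cell 39 held 44.8% of the reads of set 1 and the top 3 cells 71.2%. Without cell 39 of set 1 and cells 41, 52 and 91 of set 2 the log2 ratio was −0.50, and without the top 3 cells of each set −0.30, both still higher in set 1. Without all cells holding markers of another lineage, 26 of set 1 and 36 of set 2, it was 1.21, higher in set 2. Cpa3 is itself one of those markers.

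Dntt, the terminal transferase of early lymphoid cells, was chosen after its values were seen. It stood at 2.67 and 31.4 CPM, a log2 ratio of 3.55 (3.23 to 3.9), with 98.7% of the reads of set 2 in cell 91 (1757 CPM) and 95.2% of those of set 1 in its own top cell. Cell 91 held Cd34 at 1371 CPM, Flt3 at 203 and Rag2 at 115, while Il7r, Rag1 and Cd79a had 0 reads. In cells of 100000 to 400000 reads, which leaves out cell 91 with its 486519 reads, the log2 ratio was −3.53. The direction of Dntt therefore rested on which cells were counted.

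**Figure D3:**
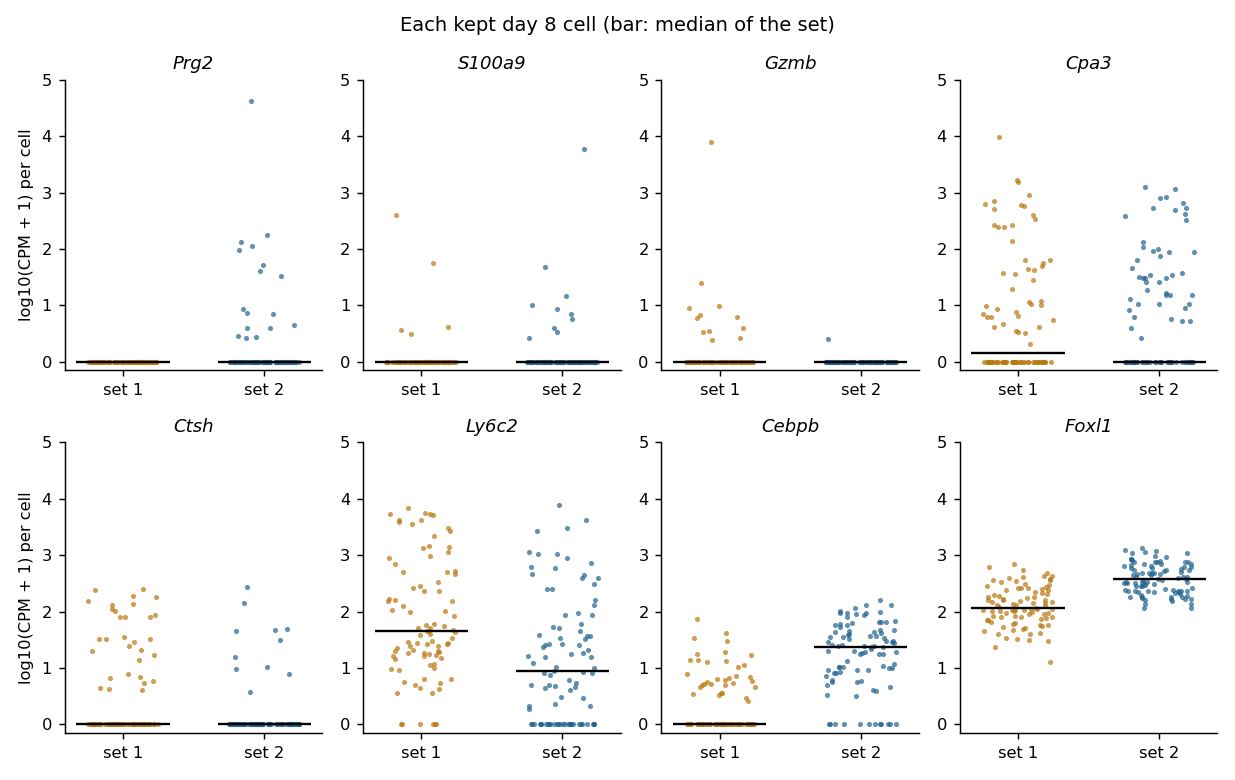
Each point is a kept day 8 cell, with log10(CPM + 1) on the vertical axis for 8 genes and a bar at the median of the set. In Prg2, S100a9 and Gzmb a single cell stands above all others of both sets; in Ctsh more cells of set 1 are above 0; in Cebpb and Foxl1 the median and most cells of set 2 are higher.

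Cells holding RNA of another lineage were counted in each set, as cells with at least 3 markers of a lineage list at 50 CPM or more. The share is given with an exact 95% binomial interval. Basophil and mast cell markers were held by 18 of 90 cells in set 1 (20%, 12.3 to 29.8%) and 29 of 93 in set 2 (31.2%, 22 to 41.6%). Some of these markers were read in most cells, so a holder is not thereby a cell of that lineage. Mcpt8 had a read in 78 of 89 cells of set 1 besides cell 39 (median 90.5 CPM). It had one in 79 of 92 cells of set 2 besides cell 41 (median 61.4 CPM). Erythroid markers were held by 4 and 11 cells, late neutrophil markers by 6 and 5, megakaryocyte markers by 0 and 2, eosinophil and early lymphoid markers by 0 and 1 each, and macrophage markers by 1 and 0. Dendritic cell, T and NK cell and stromal markers were held by 0 cells of either set, which allows up to 3.33% of set 1 and 3.23% of set 2 by the limit of 3 counts, or 4.02% and 3.89% by the exact interval. Cells can be in several lists: in set 2, 9 of the 11 erythroid cells also held basophil and mast cell markers, and in set 1, 3 of 4. Some other lineage was held by 26 cells (28.9%, 19.8 to 39.4%) and 36 cells (38.7%, 28.8 to 49.4%). At a stricter level of 200 CPM these were 10 and 10 cells, so the surplus in set 2 lay among cells with low levels of the markers.

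Read against those cells, 7 of the 29 genes past 4-fold had at least 50% of their reads in cells of 1 other lineage, counted without the gene itself. How many of all compared genes reach this mark was not counted. Of all reads, basophil and mast cell holders took 17.7% in set 1 and 24.5% in set 2, and late neutrophil holders 4.05% and 4.65%. For Gzmb the share in basophil and mast cell holders was 98.7%, for Id2 76.8% and for Csrp3, a muscle LIM protein, 96.2%. For Prg2 it was 98.3%, as cell 41 also held those markers. S100a9, S100a8 and Wfdc21 had 99.3%, 97.0% and 54.9% in late neutrophil holders. Apart from Csrp3, each of the 7 had most of these reads in 1 cell. Csrp3, named after its values were seen (1.59 and 13.5 CPM, log2 ratio 3.08), had a read in 9 and 14 cells and reached 50 CPM in 3 and 8. Dntt was not counted here, since without Dntt itself cell 91 held too few early lymphoid markers.

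Mir6236 and AA474408 gave the largest counts among the genes past 4-fold, and their cells were of no single lineage. Mir6236 is annotated as a miRNA (chr9:110281287-110281409, mm10) and AA474408 as a transcript of unsettled type (chr7:110057987-110061325, mm10). The counting of reads that fit other loci is not stated, so what these reads come from is uncertain, and a library of this kind does not measure mature miRNAs. Mir6236 stood at 362 CPM in set 1 and 3288 in set 2, a log2 ratio of 3.18 (3.16 to 3.21), and AA474408 at 42.9 and 1465 CPM, a log2 ratio of 5.10 (5.02 to 5.17). Per cell, Mir6236 had a median of 49.2 CPM and a highest value of 36606 in set 1, and a median of 137 and a highest value of 121021 in set 2. The number of cells with at least 1000 CPM was 1 and 12 for Mir6236 and 1 and 9 for AA474408, and in every cell where AA474408 was above that mark Mir6236 was too. Of the 12 high cells of set 2, 5 held markers of another lineage. Over cells the 2 loci had a Spearman correlation of 0.44 in set 1 and 0.74 in set 2. Without the top 3 cells of each set the log2 ratios were 4.32 and 5.71, where set 1 loses its 1 high cell and set 2 keeps 9 of 12 for Mir6236. In cells of 100000 to 400000 reads they were 1.17 and 2.31. On other days the levels ran from 65.8 (day 10) to 4083 CPM (day 14) for Mir6236 and from 4.52 (day 10) to 3095 CPM (day 14) for AA474408.

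Among the genes higher in set 1 were several of monocytes. Ctsh (chr9:90054152-90076089, mm10), the lysosomal protease cathepsin H, stood at 24.7 CPM in set 1 and 3.99 in set 2, a log2 ratio of −2.63 (−2.93 to −2.34). It had a read in 31 of 90 and 11 of 93 cells. The median among those cells was almost the same, 31.6 and 30.6 CPM, and the highest cells were also close, at 250 and 276 CPM. Of all cells, 13 in set 1 and 2 in set 2 reached 50 CPM. The cell with most of its reads in set 1, cell 92, was the deepest of the set and held 21.5% of them. In set 2 cell 12 held 28.2% and cell 41, the cell rich in Prg2, came next with 25.5%. The difference in Ctsh was thus mostly in how many cells had a read. After thinning, the shares of cells with a read were 23.3% (15.1 to 33.4%) and 7.53% (3.08 to 14.9%). Its log2 ratio was −2.10 in thinned cells and −2.68 in cells of 100000 to 400000 reads.

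Of the 17 monocyte genes listed, 12 were compared, 5 were past 2-fold and higher in set 1 (Ctsh, Ly86, Ly6c2, F13a1 and Ccr2) and none was past 2-fold and higher in set 2. Over all genes compared, 2.1% were past 2-fold and higher in set 1. Ctsh was given with the comparison, and Ctsh and Ly86 reached 10 CPM only in set 1, so the count is a description. The median log2 ratio of the 12 genes was −0.83 against −0.14 over all genes. Ly6c2, a surface protein of inflammatory monocytes, stood at 765 and 242 CPM (log2 ratio −1.66, −1.70 to −1.62), with a median cell at 43.7 and 7.88 CPM and 84 of 90 and 65 of 93 cells with a read. Its near copy Ly6c1 can share its reads, and stood at 6.74 and 2.28 CPM. Ccr2, the chemokine receptor of monocytes, stood at 149 and 65.5 CPM (−1.19), with 72 and 54 cells with a read, and F13a1, a coagulation factor subunit, at 172 and 73.9 CPM (−1.22). Ly86, also called MD-1, a secreted protein that pairs with the receptor RP105, stood at 30.5 and 7.47 CPM (−2.03), with a read in 23 and 9 cells. Other members differed less. The regulator Irf8 stood at 203 and 127 CPM (−0.68), and Csf1r, the receptor for macrophage colony-stimulating factor, at 33.8 and 28.5 CPM (−0.25). Klf4, under the level compared, stood at 3.05 and 0.15 CPM. F13a1 changed direction in cells of 100000 to 400000 reads, with a log2 ratio of 0.06, and that of Ly6c2 was −0.77 there.

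Some genes outside the list that were higher in set 1 also had most of their reads in cells holding at least 3 monocyte markers. Such cells held at least 80% of the reads of 8 of the 15 genes past 4-fold and higher in set 1. Ctsh and Ly86 are of the list, and Ifi209, Bmx, Gpr183, Aldh3b1, Serpinf1 and I830127L07Rik are outside it. All but Ctsh were named after their values were seen. The same share was reached by 3 of the 14 genes higher in set 2, Prg2, S100a8 and S100a9, each mostly read in 1 cell. How many of all compared genes reach 80% was not counted. The share has to be read against the cells' part of all reads, which was 71.2% in set 1 and 48.8% in set 2. Serpinf1, pigment epithelium-derived factor, stood at 69.6 and 13.6 CPM (−2.36), with a read in 67 and 33 cells. I830127L07Rik, annotated as a transcribed pseudogene beside the Ly6c genes, stood at 98.3 and 22.1 CPM (−2.15). Ifi209, an interferon-inducible gene, stood at 18.3 and 1.70 CPM (−3.42), and Bmx, a Tec family kinase, at 21.7 and 2.28 CPM (−3.25).

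The count of cells with monocyte markers differed in the same direction. At least 3 of the 17 markers reached 50 CPM in 58 of 90 cells of set 1 (64.4%, 53.7 to 74.3%) and 42 of 93 cells of set 2 (45.2%, 34.8 to 55.8%). In cells thinned to 50000 reads the numbers were 59 (65.6%, 54.8 to 75.3%) and 46 (49.5%, 38.9 to 60%). Such cells were deeper than the others in both sets, with medians of 342932 against 227320 reads in set 1 and 230840 against 167505 in set 2. At 200 CPM they numbered 26 and 15. Within the cells that held 3 monocyte markers other than Ctsh, Ctsh stood at 32.9 and 5.32 CPM, a log2 ratio of −2.63, and outside them at 5.08 and 2.74 CPM, −0.89. The difference was therefore present among the cells counted as holders. That count takes any cell with at least 3 of the markers, so it mixes cells with few and with many of them. Whether cells alike in their markers differed between the sets was not tested. For Ly6c2 the ratio within holders at 50 CPM was −1.15 and for Irf8 −0.24. Within holders at 200 CPM, again without the gene itself, Ctsh stood at 61.2 and 15.3 CPM. There the ratio was smaller in size for Ctsh and, at −0.73, for Ly6c2, and that of Irf8 was 0.10. On day 0 Ctsh stood at 103 CPM, on day 10 at 15.6, on day 12 at 94.5 and on day 14 at 54.3, so both day 8 sets lay far under days 0 and 12.

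No primary granule gene compared was past 2-fold between the sets. Of the 10 genes listed, 9 were compared, with a median log2 ratio of −0.06 and a range of −0.71 to 0.49. Summed over the list, these genes stood at 40527 CPM in set 1 and 30390 in set 2. Mpo was the lowest, at 23822 and 14581 CPM. Elane stood at 2701 and 2907 CPM, Prtn3 at 3734 and 3506, and Ctsg at 7864 and 7057. At least 3 of these genes were at 50 CPM in 90 of 90 and 92 of 93 cells. The stem and multipotent progenitor genes leaned towards set 2: 13 of 17 were compared, 9 were higher in set 2, and Ctla2b, at 6.81 and 13.7 CPM, was past 2-fold. Their median log2 ratio was 0.31. Ifitm1, an interferon-inducible membrane protein, stood at 455 and 802 CPM, and Flt3, a receptor of early progenitors, at 22.5 and 34.2. Stem markers, 3 at 50 CPM, were held by 75 of 90 cells (83.3%, 74 to 90.4%) and 91 of 93 (97.8%, 92.4 to 99.7%).

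Among differences spread over many cells, Cebpb was the gene past 4-fold, and it was named after its values were seen. Cebpb (chr2:167688915-167690418, mm10) encodes a C/EBP transcription factor of emergency granulopoiesis. It stood at 5.03 CPM in set 1 and 30.6 in set 2, a log2 ratio of 2.61 (2.36 to 2.86). In set 1 the median cell had no read and the highest had 72.7 CPM. In set 2 the median cell had 22.6 CPM and the highest 163. A read was found in 34 of 90 and 81 of 93 cells, and after thinning in 12.2% (6.26 to 20.8%) and 60.2% (49.5 to 70.2%), so the shallower set had more cells with a read. The log2 ratio was 3.36 in thinned cells, 3.26 in cells of 100000 to 400000 reads and 2.53 without cells of another lineage. The other family members differed far less. Cebpa stood at 74.8 and 94.5 CPM (0.34), Cebpd at 41 and 33.2 (−0.30) and Cebpe at 16.4 and 11.8 (−0.48). On other days Cebpb ran from 16.9 CPM on day 0 to 36.8 on day 10, so set 1 was the lowest of the 6 sets. No other gene of the amino acid stress and serine-folate list, to which it also belongs, was past 2-fold among the 10 compared.

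The other many-cell genes higher in set 2 were mostly loci with an even number of reads in every cell. Foxl1, a forkhead factor of gut mesenchyme, stood at 104 and 285 CPM (log2 ratio 1.46, 1.40 to 1.52). Every cell of both sets had a read, from 11 to 99 reads per cell in set 1 with a median of 31.5, and from 42 to 179 in set 2 with a median of 77. The cells' CPM fell with their depth, with a Spearman correlation over cells of −0.80 in set 1 and −0.91 in set 2, since the depth of cells varied over a wider range than its reads. Tbata, a thymus and testis gene, stood at 34.9 and 110 CPM (1.66), and Klhl20, a ubiquitin ligase adaptor, at 116 and 278 (1.26). Slc34a2, a phosphate transporter that took a median of 9.68% of a cell's gene reads in set 1 and 16.3% in set 2, had the same form, with correlations of −0.75 and −0.84 and a log2 ratio of 0.64.

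Counted over all genes, 124 loci had a Spearman correlation under −0.5 between CPM and depth in both sets. Of these, 120 were higher in set 2, with a median log2 ratio of 0.66, against a median of −0.14 over all genes compared. The loci were picked for a CPM that falls with depth, and set 2 was the shallower set. A higher level in set 2 was therefore favoured by the choice of loci, and the count is only a description. The median log2 ratio of these loci was 0.74 in thinned cells and 0.66 in cells of 100000 to 400000 reads. Thinning leaves a cell's expected CPM as it was, and the latter cells still differed in median depth, so neither value bears on depth as a cause, which was not tested. Of the 49 many-cell genes past 2-fold and higher in set 2, 28 had a correlation under −0.4 in both sets, and of the 28 higher in set 1 none had. These counts have the same limit, since set 2 was the shallower set. Reads in genes per spike-in read were close, with a median of 78.9 in set 1 and 71.8 in set 2, while Foxl1 had 8.45 and 22.2 reads per 1000 spike-in reads. The part of library making or of the reads' origin in this was not tested.

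**Figure D4:**
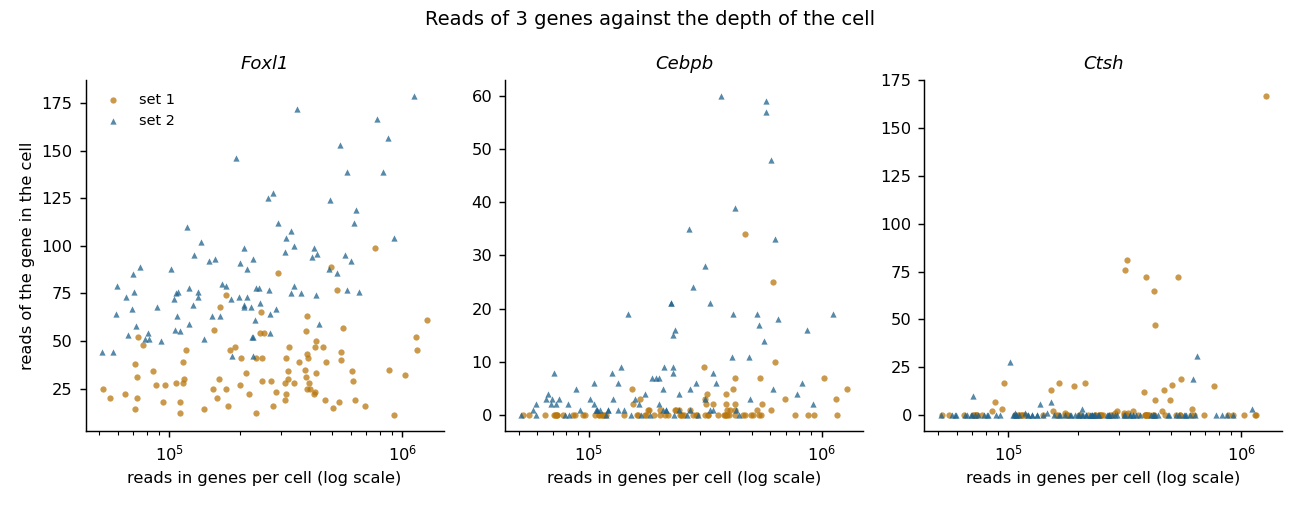
Reads of Foxl1, Cebpb and Ctsh in each kept day 8 cell (vertical axes, linear) against the cell's reads in genes (horizontal axes, log scale), with circles for set 1 and triangles for set 2. Foxl1 has reads in every cell at every depth and more of them in set 2, Cebpb is above 0 in 34 cells of set 1 and 81 of set 2, and Ctsh is above 0 in 31 and 11.

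None of the many-cell differences towards set 1 was past 4-fold. Pla2g15, a lysosomal phospholipase, stood at 47.2 and 16.9 CPM (log2 ratio −1.49, −1.64 to −1.33), with a read in 62 of 90 and 50 of 93 cells. Its log2 ratio was −0.95 in thinned cells and −0.03 in cells of 100000 to 400000 reads. Fmnl1, a formin of white blood cells, stood at 41.5 and 16.6 CPM (−1.32), and −0.69 when thinned. Of the 8 named genes of this kind with at least 32 CPM, Pex16, a peroxisome assembly factor, alone stayed past 2-fold under both. Its log2 ratios were −1.07 in all kept cells, −1.03 when thinned and −1.06 in cells of 100000 to 400000 reads. The other 7 were Pla2g15, Fmnl1, Ccr2, Rnf40, Scaf8, Arap1 and Mef2d.

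Depth was examined for every gene by thinning each cell to 50000 reads and, separately, by keeping only the 50 and 56 cells of 100000 to 400000 reads, whose medians were 245168 and 208230. A gene was counted as changed where its log2 ratio fell under 1 in size, or turned, in either. Thinning gives deep cells less weight in the sum, and the other choice leaves out cells without making depth equal. Neither isolates depth, which was not tested as a cause. Of the 29 genes past 4-fold, 5 changed. These were Fut4 in both, Bbs9 when thinned, and Gpr183, Aldh3b1 and Dntt in cells of 100000 to 400000 reads. Of the 29, 22 were still at least 4-fold apart when thinned and none had turned. Of the 296 genes past 2-fold, 181 changed, 135 when thinned and 144 in cells of 100000 to 400000 reads, and 6 turned when thinned. The 296 include the 29.

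**Figure D5:**
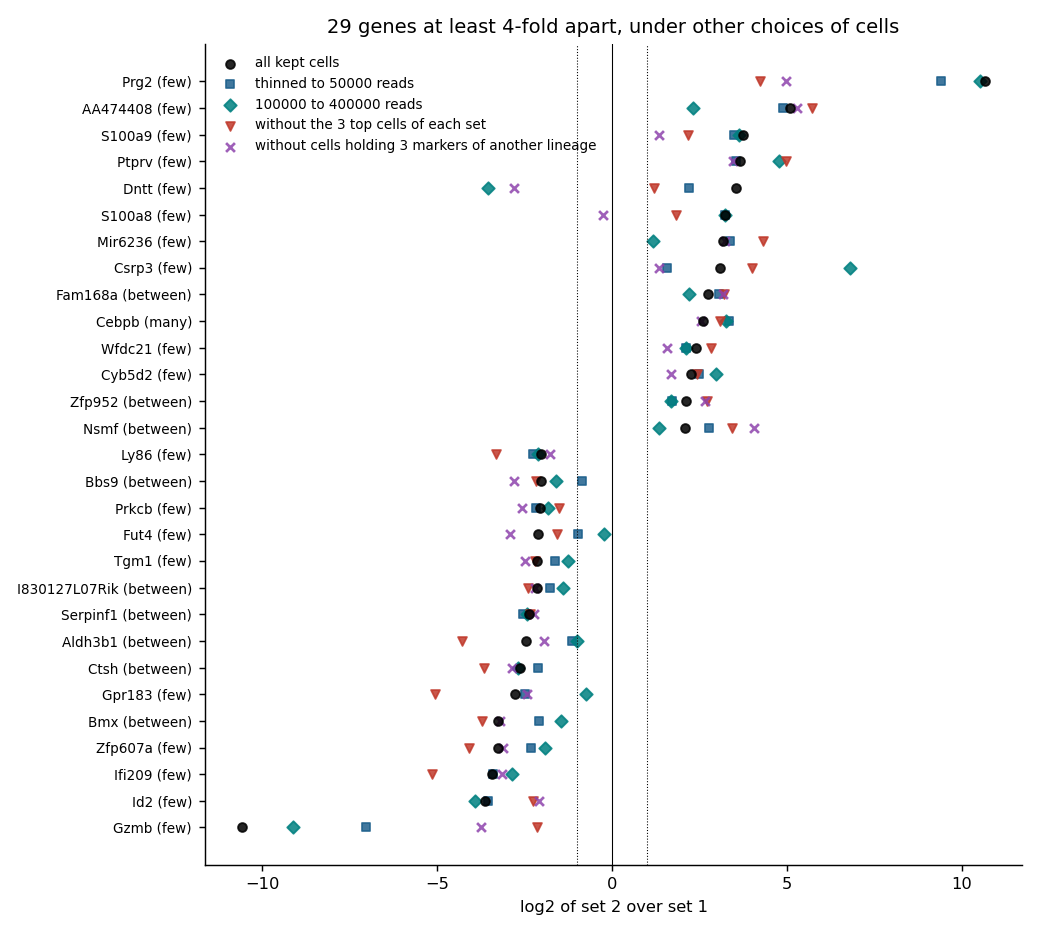
The log2 ratio of set 2 to set 1 for each of the 29 genes past 4-fold (rows, with the spread over cells in brackets) from all kept cells and 4 other choices of cells, with dotted lines at 2-fold. Dntt and S100a8 cross 0 under a choice that leaves out their top cell, and Cebpb, Serpinf1 and Ptprv stay beyond 2-fold under every choice shown.

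Lists of pathways showed few genes past 2-fold, and with 3.47% of all genes past that mark their counts are read as a description. The cholesterol synthesis and uptake list had 3 of 17 compared genes past 2-fold and higher in set 1, among them Lss, lanosterol synthase, at 15.6 and 6.46 CPM (−1.27), and Cyp51, a sterol demethylase, at 46.8 and 22.6 CPM (−1.05). Its median log2 ratio was −0.31. Single genes past 2-fold and higher in set 1 were Ccne1, cyclin E1, of 20 DNA replication genes (92.1 and 39.5 CPM), Slc16a3, a lactate transporter, of 16 glycolysis genes (19.4 and 9.36 CPM), and Ifi209 of 9 interferon genes. Itga2b, an integrin of megakaryocytes, was the single megakaryocyte gene compared and stood at 14.5 and 33.4 CPM (1.20). None was past 2-fold among 19 mitosis, 20 ribosome biogenesis, 25 ribosomal protein, 17 nuclear respiratory chain, 10 mitochondrially encoded, 9 immediate early, 8 heat shock, 8 MHC class I, 9 p53 target, 4 erythroid, 2 dendritic cell and 12 widely expressed genes. Their median log2 ratios ran from −0.38 for immediate early genes to 0.34 for erythroid genes. No macrophage or stromal gene reached the level compared.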

How the data were processed

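For each cell the authors deposited a read count per gene, with no scaling. The submitters' processing notes name GSNAP, HTSeq 0.5.3p3 and the genome build mm10. Whether multiply mapped reads or strand were used is not given in the sources used here. Besides 46078 genes, a table lists 92 spike-ins and 5 classes of reads naming no gene. These classes took a median of 87.8% of a day 8 cell's reads against 12.0% for genes. They and the spike-ins were left out of totals, and 1 column that matched no labelled cell was not used. Of 574 labelled cells, 573 had a column, and no 2 cells had identical counts (0 pairs). Symbols came from GENCODE vM21 for 45229 gene IDs.

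Counts of kept cells were summed by set and scaled with TMM factors over the 6 sets (edgeR 4.0.16, R 4.3.3). Ratios have exact 95% conditional binomial intervals, and shares exact 95% Clopper-Pearson intervals. A set at 0 was put at 3 reads, which gives a lower bound. No test was run, since each side is 1 set. Thinning used 1 fixed seed. The alternatives, 17 planned and 4 added after seeing the data, included DESeq2 1.42.0 size factors. Scripts ran in Python 3.11.15 with scipy 1.17.1, numpy 2.4.6, matplotlib 3.10.9 and pandas 2.3.3. The comparison was tested on simulated data.

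Genes named were Prg2, S100a9, Ctsh and Cpa3, the 8 largest folds in each direction of the few-cell and many-cell classes with at least 32 CPM, up to 4 highest members of each list described, the gate, sex-linked and nuclear RNA lists, and genes at 0 in 1 set. Others, among them list members named because they were past 2-fold, were chosen after their values were seen. The comparison, its markers and the 31 gene lists were chosen with earlier results of these data known. Values of some genes are not reported here.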

Additional observations from a re-analysis of the deposited data

How the results depend on the processing

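Each comparison was repeated with 1 choice changed at a time, and every fold rests on 1 set a side, so these repeats say nothing of how further mice would vary. No paired analysis was possible because each side is 1 set, and the cell numbers name wells. Scaling changed little: the median log2 ratio over compared genes was −0.14, and −0.11 with DESeq2 size factors or −0.07 with library totals. Of 348 values of the 29 genes past 4-fold, 342 had the same direction and 337 were at least 2-fold. The 29 genes past 4-fold became 2054 with no filter on level, 8 at 32 CPM or more, 46 in cells of at least 200000 reads, 66 in cells of 100000 to 400000 reads, 46 without cells of another lineage and 14 without the top 3 cells of each gene. The 296 genes past 2-fold became 6460, 64, 490 in cells of 100000 to 400000 reads and 484 without cells of another lineage. The 19 few-cell genes past 4-fold became 1923, 6, 33 in cells of 100000 to 400000 reads and 4 without the top 3 cells. The last count asks for 4-fold and 10 CPM after those cells are left out. With no level required, all 19 were still at least 2-fold apart in the same direction, but some of these folds rest on few reads or on a set put at 3 reads. Of the 5 genes past 4-fold that changed when thinned or in cells of 100000 to 400000 reads, 2 did so when thinned. Cells holding another lineage, 26 and 36, became 10 and 10 at 200 CPM and 52 and 65 with 2 markers, and monocyte-marker cells, 58 and 42, became 26 and 15 or 74 and 67. Monocyte genes past 2-fold, 5, became 3 at 32 CPM and 3 in cells of 100000 to 400000 reads. The 3 late neutrophil genes became 8 with no filter, 0 without cells of another lineage, 0 without the top 3 cells and 1 without cell 39 of set 1 and cells 41, 52 and 91 of set 2. The 3 cholesterol genes became 1 at 32 CPM and 1 without cells of another lineage. Directions turned for S100a9 (−2.82), S100a8 (−1.46) and Dntt (−2.70) without those 4 cells, which keeps the top cells of set 1 for these genes. They also turned for Cpa3 (1.21), Dntt (−2.80) and S100a8 (−0.25) without cells of another lineage. In cells of 100000 to 400000 reads they turned for Dntt (−3.53) and F13a1 (0.058). Fewer cells and fewer genes past the filter are part of several of these settings by construction, and beyond that the cause was not tested. Genes with few reads limit the rest: 232 of the 296 genes past 2-fold stood under 32 CPM.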

Other observations

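Sex-linked RNA was read in the same way in both day 8 sets. Eif2s3y, a Y-linked translation factor gene, stood at 80.8 and 55.6 CPM and had a read in 74 of 90 and 74 of 93 cells, and Kdm5d, a Y-linked histone demethylase gene, stood at 15.7 and 9.86 CPM. Xist, the RNA of the silenced X chromosome, had a read in 7 and 8 cells and a level of 0.22 and 1.67 CPM. Its level was 175 CPM in the day 0 set and 156 CPM in that of day 12. The nuclear RNA Malat1 stood at 179 and 260 CPM and Neat1 at 44.5 and 37.5.

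The reads of the single-cell genes that lay outside their main cell were not spread evenly. Only the day 12 table names a pair of index sequences for each well, and if the day 8 plates were laid out in that way, 7 cells of set 2 shared the first index of cell 41. They held 68 of the 78 Prg2 reads found outside it, and 75 cells sharing neither index held 9. For Gzmb, 7 cells shared the first index of cell 39 of set 1 and held 20 of the 26 other reads. For Dntt the count was 4 of 11 reads in 6 cells, for S100a8 13 of 345 and for S100a9 2 of 17, each in 6 cells. Prg2 and Gzmb were therefore read mostly in cells of a shared index, and S100a8 mostly in cells with neither index (253 reads). This was looked at after the values were seen, the layout of the day 8 plates is not given in the sources used here, and the cause was not tested.

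Several genes under the level compared also stood apart and have no interval on a fold that can be read firmly. Prss34, a basophil protease, stood at 7.73 CPM in set 1 and 0.04 in set 2. Cyp11a1, a steroid-making enzyme of mast cells and basophils, stood at 6.20 and 0.33, with 88.7% of the reads of set 1 in cell 39. Gp9, a platelet glycoprotein, stood at 0.32 and 4.90 CPM. Hbb-bt, a beta globin gene, stood at 4.26 and 0.40 CPM. All were chosen after their values were seen.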
